A study of Homo sapiens with 4 samples.

Results

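Promoter H3K4me3 was examined at 10 inducible genes of the inflammatory response in RS4;11 and THP-1 leukemia cells. The genes were IL1A, IL1B, IL1RN, IL6, TNF, CCL2, CCL3, CCL4, CXCL2 and NLRP3, taken by symbol from the lines of the peak files, and they are 10 of 20136 protein-coding genes annotated on the genome build used. The series holds 4 ChIP-seq samples, 1 for WDR5 and 1 for H3K4me3 in each cell line. RS4;11 is a B-cell precursor acute lymphoblastic leukemia line with an MLL-AF4 fusion, and THP-1 is a monocytic acute myeloid leukemia line with an MLL-AF9 fusion. Both lines were grown in RPMI medium with 10% serum and carry an MLL rearrangement, and no stimulus, genotype change or treatment is stated for any sample. Each line is the descendant of 1 patient's cells, and with 1 sample per antibody and line no difference below has a replicate check, so no test was made and no p-value is given.

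H3K4me3 is the trimethylated form of lysine 4 of histone H3, and it collects around the start sites of active genes and of genes held ready for activation. WDR5 is a shared subunit of the MLL-family methyltransferases that write this mark. The cytokines IL-1α, IL-1β, IL-6 and TNF, the IL-1 receptor antagonist and the chemokines CCL2, CCL3, CCL4 and CXCL2 are made at low levels by resting monocytes and rise quickly after a microbial signal, largely through the transcription factors NF-κB and AP-1. NLRP3 is the sensor of the inflammasome that activates caspase-1, which cleaves the IL-1β precursor.

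Whether a promoter was marked was read from the position of the peaks alone, because the files list intervals without heights or tag counts. A gene counted as marked when a peak shared at least 1 bp with a window that began 2000 bp before its start and ended 500 bp after it. The start was the 5′ end of the gene in GENCODE, or, as a second reading added after the data were seen, the start of its MANE Select transcript, the one transcript chosen to represent each gene. The distinction matters for IL6 and IL1RN, whose 5′ ends lie 1316 and 28283 bp upstream of the MANE start.

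The RS4;11 files held 24212 distinct H3K4me3 peaks and 703 WDR5 peaks, and the THP-1 files 26523 and 225. The widest H3K4me3 peak measured 4478 bp (RS4;11) or 4446 bp (THP-1). In steps of 100 bp from 4100 bp, RS4;11 cells had 130, 110, 58 and 18 peaks and THP-1 cells had 100, 52, 8 and 1, and neither line had a peak of 4500 bp or more. In a panel of 14 commonly expressed reference genes, chosen after these widths were seen, 7 (RS4;11) and 6 (THP-1) had a peak at the MANE start, and ACTB, GAPDH, B2M, TBP, YWHAZ and EEF1A1 had none in either line. A promoter with no listed peak was therefore not read as a promoter without the mark, and the part of these limits in the differences below was not tested.

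**Figure D1:**
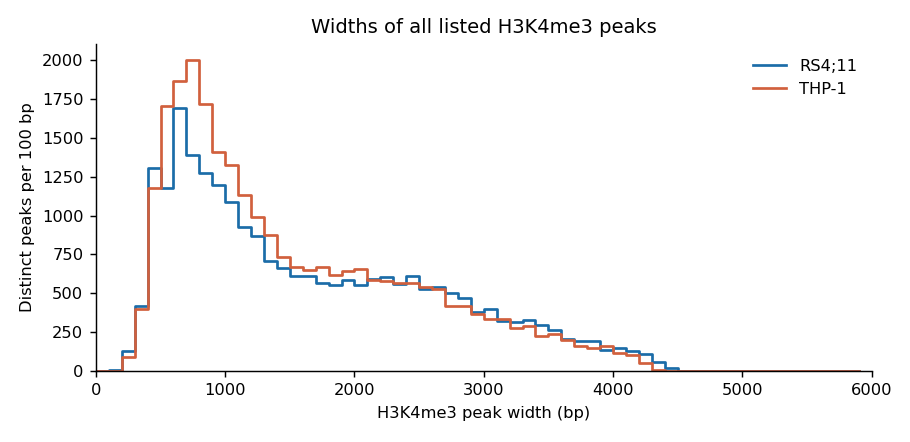
Widths of all listed H3K4me3 peaks in RS4;11 and THP-1 cells, as the number of distinct peaks (vertical axis) in steps of 100 bp of width (horizontal axis, bp). Both curves fall to 0 before 4500 bp, the widest peaks being 4478 bp (RS4;11) and 4446 bp (THP-1).

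The markers of the cell types gave a mixed picture. Of 11 B-cell precursor genes, RS4;11 cells had 4 marked at the gene 5′ end (36.4%, beside 49.2% of all protein-coding genes), while THP-1 cells had 3 (27.3%, beside 55.3%). At the MANE start the order was reversed, with 3 in RS4;11 cells (27.3%, beside 52.0%) and 4 in THP-1 cells (36.4%, beside 59.4%). VPREB1, VPREB3, DNTT, RAG2 and BLK had no listed peak in either line. CD79A and CD79B, the signaling chains of the B-cell receptor, and CD22, its inhibitory co-receptor, had RS4;11 peaks of 2816, 2921 and 2769 bp. In THP-1 cells CD79A had none near the MANE start and CD22 and CD79B had peaks of 653 and 946 bp. The B-lineage factors PAX5 and EBF1 went the other way, with THP-1 peaks of 4037 and 2472 bp and none listed in RS4;11 cells. Of 10 myeloid genes, RS4;11 cells had 5 marked at the gene 5′ end (50.0%) and THP-1 cells 4 (40.0%), while at the MANE start each line had 5. CEBPA, MPO and FCGR1A were marked in neither line. LYZ and CD33 were marked in both lines, with RS4;11 peaks of 645 and 1075 bp and THP-1 peaks of 2709 and 3357 bp. CD14 measured 1004 bp (RS4;11) and 1335 bp (THP-1), and ITGAM (1763 bp) and, at its MANE start, CSF1R (2418 bp) had a peak in THP-1 cells alone. SPI1, the myeloid master factor PU.1, had a peak of 3100 bp in RS4;11 cells and none listed in THP-1 cells, and CTSG, a granule protease gene, likewise had one of 1437 bp in RS4;11 cells alone. RAG1 was marked in both lines at its 5′ end and in neither at its MANE start. Thus CD22, CD79A, CD79B, LYZ, CD33, CD14, ITGAM and CSF1R had the wider or only peak in the line of their own lineage. PAX5, EBF1, SPI1 and CTSG had a listed peak only in the line of the other lineage. Both readings rest in part on peaks that are not listed, which are not read as absent marks. This holds for PAX5, EBF1, SPI1 and CTSG, and also for CD79A, ITGAM and CSF1R. The cell line labels are not free of conflict, because the H3K4me3 sample labeled RS4;11 has a cell type entry that names the other leukemia type. The grouping here follows the cell line entry, and which entry is right was not tested.

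At the gene 5′ ends, 6 of the 10 inflammatory genes were marked in THP-1 cells, IL1A, IL1B, IL6, CCL2, CCL3 and CXCL2, against 55.3% of all protein-coding genes. In RS4;11 cells 5 of 10 were marked, IL1B, CCL2, CCL3, CXCL2 and NLRP3, against 49.2% of all genes. IL1A and IL6 were marked in THP-1 cells and not in RS4;11 cells, a state shared by 11.9% of genes, and NLRP3 was marked in RS4;11 cells and not in THP-1 cells, a state shared by 5.72%. These counts lie near the background of each line. From the MANE start the counts were 7 of 10 in each line, against 59.4% of genes in THP-1 cells and 52.0% in RS4;11 cells, because IL1RN was then marked in both lines and IL6 also in RS4;11 cells. By this reading 6 genes were shared (IL1B, IL1RN, IL6, CCL2, CCL3 and CXCL2), IL1A was marked only in THP-1 cells (13.0% of genes), NLRP3 only in RS4;11 cells (5.53% of genes), and TNF and CCL4 in neither. A peak lay over the MANE start base itself at 6 of 10 genes in THP-1 cells (52.8% of all genes) and 7 of 10 in RS4;11 cells (49.1%). At that base IL1A was covered in THP-1 cells and not in RS4;11 cells (11.2% of genes), and IL6 and NLRP3 in RS4;11 cells and not in THP-1 cells (7.52% of genes).

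**Figure D2:**
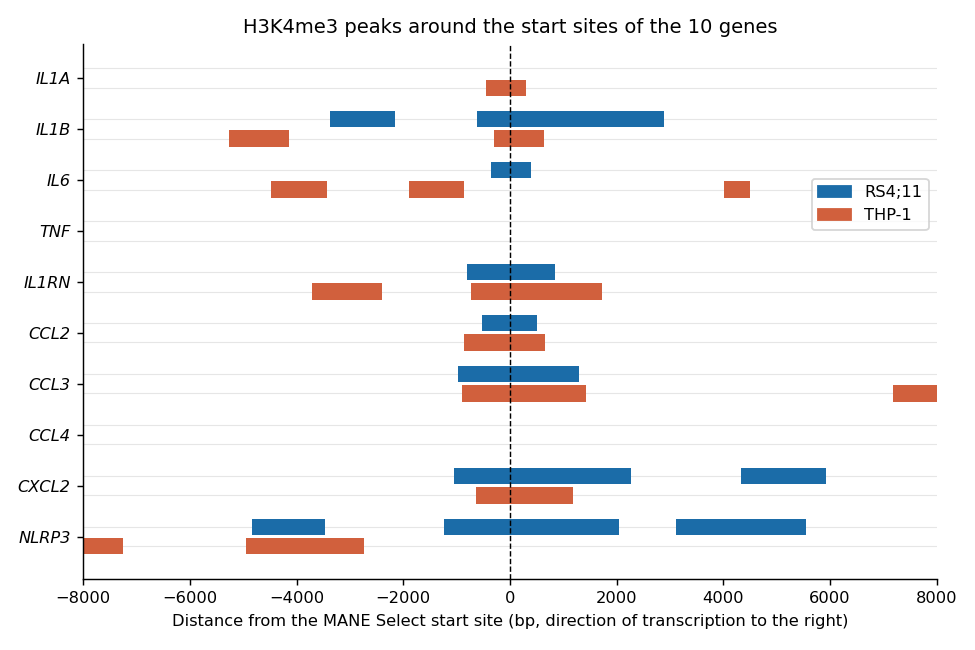
H3K4me3 peaks of RS4;11 cells (upper bar of each row) and THP-1 cells (lower bar) around the MANE Select start of the 10 genes, by distance from the start in bp, cut at 8000 bp to each side. A peak crosses the start in both lines at IL1B, IL1RN, CCL2, CCL3 and CXCL2, in THP-1 cells alone at IL1A, in RS4;11 cells alone at IL6 and NLRP3, and in neither line at TNF and CCL4.

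Of the 10 promoters 9 had a low content of CpG dinucleotides, with an observed to expected ratio below 0.6, as had 8875 of all 20136 protein-coding genes. The choice of the genes did not use this feature, but it was made with earlier results of these data known. The ratio of observed to expected CpG within 1000 bp to each side of the MANE start lay between 0.117 at IL1B and 0.302 at IL6 in 9 of them. CXCL2 stood apart at 0.619, near the median of all protein-coding genes of 0.635. CpG-rich promoters carry H3K4me3 in most cell types, and in these files 76.9% of genes with a ratio of 0.6 or more had a peak in THP-1 cells and 67.4% in RS4;11 cells. Of the 8875 genes below 0.6, 37.2% were marked in THP-1 cells and 32.4% in RS4;11 cells. Among the 9 inflammatory genes below 0.6, 6 were marked in each line. These are counts over a few chosen genes, some of which are neighbors, and they were not tested.

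The bases just before the start show the kind of promoter these peaks lie on. The 5 sequences below were chosen because their peaks differ between the lines in presence (IL1A, NLRP3), in width by over 1.5 times (IL1B, CXCL2) or in position (IL6). Each ends at the base before the most upstream annotated start within 100 bp of the MANE start, read 5′ to 3′ from GRCh37 on the strand of the gene. Each is 250 bases long, except CXCL2 with 206, which stops short of an exon annotated upstream. Capitals mark matches to the TATA box string TATAAA on the gene's strand, to the AP-1 site TGANTCA and, on either strand, to the NF-κB consensus.
IL1A (chr2:113542071-113542320, minus strand): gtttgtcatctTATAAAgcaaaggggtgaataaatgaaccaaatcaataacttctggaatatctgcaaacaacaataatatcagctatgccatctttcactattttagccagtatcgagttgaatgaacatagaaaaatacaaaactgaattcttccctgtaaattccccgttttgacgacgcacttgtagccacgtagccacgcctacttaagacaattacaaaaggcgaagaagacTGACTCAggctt
NLRP3 (chr1:247579208-247579457, plus strand): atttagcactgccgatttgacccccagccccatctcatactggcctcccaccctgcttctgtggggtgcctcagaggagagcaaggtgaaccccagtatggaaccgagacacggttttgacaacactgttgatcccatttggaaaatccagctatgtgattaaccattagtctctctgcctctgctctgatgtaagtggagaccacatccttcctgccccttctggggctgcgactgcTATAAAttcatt
IL1B (chr2:113594394-113594643, minus strand): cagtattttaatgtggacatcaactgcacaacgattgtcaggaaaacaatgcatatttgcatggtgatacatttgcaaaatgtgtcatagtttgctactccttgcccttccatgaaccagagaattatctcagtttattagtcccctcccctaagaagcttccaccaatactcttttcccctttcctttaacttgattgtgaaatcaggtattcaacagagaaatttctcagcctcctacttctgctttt
CXCL2 (chr4:74964914-74965119, minus strand): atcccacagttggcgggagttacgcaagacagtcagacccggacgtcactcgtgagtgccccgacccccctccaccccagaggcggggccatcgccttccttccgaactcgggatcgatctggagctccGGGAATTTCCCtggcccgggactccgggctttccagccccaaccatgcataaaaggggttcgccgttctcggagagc
IL6 (chr7:22766516-22766765, plus strand): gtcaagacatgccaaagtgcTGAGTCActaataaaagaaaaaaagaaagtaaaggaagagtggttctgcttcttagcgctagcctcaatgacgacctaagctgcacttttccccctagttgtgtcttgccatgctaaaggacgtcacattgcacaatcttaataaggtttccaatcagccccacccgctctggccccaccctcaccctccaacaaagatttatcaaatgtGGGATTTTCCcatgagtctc

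Distances to motif matches are counted from the most upstream annotated start at which each sequence ends, which is not always the MANE start. The run in capitals at CXCL2 holds 2 overlapping NF-κB matches, one on each strand, between 77 and 67 bases before the start. IL6 carried an NF-κB match 20 to 11 bases before its start and an AP-1 match 230 to 224 bases before it. IL1A carried an AP-1 match 12 to 6 bases before the start. Over the same 250 bases, 3 of the 10 genes held an NF-κB match (11.2% of 20136 promoters), 2 an AP-1 match (4.75%) and 5 the string TATAAA (6.74%). That string lay 29 to 24 bases before the start at TNF and 28 to 23 bases at CCL4, near the usual place of a TATA box. By the same count it lay 239 to 234 bases before the start at IL1A, 12 to 7 bases at NLRP3 and 8 to 3 bases at IL1RN. The MANE start of NLRP3 is 17 bp farther downstream, and from there its string lay as far away as that of TNF. IL1B had no match of the 3 kinds in this window, although it had a peak in both lines. A match is a string of letters and was not tested as a binding site.

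IL1B encodes the precursor of IL-1β, and its promoter was marked in both lines. In RS4;11 cells the peak ran from 610 bp upstream to 2892 bp downstream of the MANE start (chr2:113591464-113594966, 3503 bp) and touched exons 1 to 3. In THP-1 cells it ran from 307 bp upstream to 637 bp downstream (chr2:113593719-113594663, 945 bp) and touched exons 1 and 2. The RS4;11 peak was thus 3.71 times as wide, and the THP-1 peak lay wholly inside it. Each line also had a second, separate peak upstream of IL1B, and it ended 2160 bp (RS4;11) or 4146 bp (THP-1) before the start. Of all RS4;11 promoter peaks, taken here and below in the windows at gene 5′ ends, 86.1% were no wider than that of IL1B. Of all THP-1 promoter peaks 8.72% were no wider than its THP-1 peak.

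IL1A, which encodes the related cytokine IL-1α, lies 45257 bp downstream of IL1B on the same strand. In THP-1 cells a peak of 750 bp (chr2:113541773-113542522) ran from 452 bp upstream to 297 bp downstream of the start and covered exon 1 and the start of intron 1. It was among the narrow promoter peaks, with 4.71% no wider. In RS4;11 cells no peak lay between 14716 bp upstream and 15995 bp downstream, although the gene was named on lines for 3 distant peaks. The nearest gene on its other side, CKAP2L, was marked in both lines.

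IL1RN encodes the IL-1 receptor antagonist, the natural inhibitor of both IL-1 forms. At the MANE start the RS4;11 peak covered 1655 bp (chr2:113884364-113886018) and the THP-1 peak 2451 bp (chr2:113884442-113886892). Both began within 1000 bp upstream of the start and ended in intron 1, at 843 bp (RS4;11) and 1717 bp (THP-1) downstream of the start. THP-1 cells had a further peak of 1320 bp that ended 2391 bp upstream. Over the gene and 20000 bp to each side, 95.3% of the bases covered in RS4;11 cells were covered in THP-1 cells as well, and 41.8% of those covered in THP-1 cells were covered in RS4;11 cells. No peak was listed at the distal 5′ end of the gene in either line.

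IL6 was the gene where the lines differed in position. In RS4;11 cells a single peak of 738 bp (chr7:22766467-22767204) ran from 352 bp upstream to 385 bp downstream of the MANE start and touched exons 1 and 2. In THP-1 cells no peak covered this start, and a peak of 1028 bp (chr7:22764929-22765956) lay between 1890 and 863 bp upstream, over the distal 5′ end of the gene. THP-1 cells also had a peak of 1050 bp farther upstream, ending 3434 bp before the MANE start, and one of 486 bp in the last exon, exon 5, and the intron before it. No base was covered in both lines within 20000 bp of the gene. The presence of a mark in both lines therefore stood for different intervals at IL6.

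TNF encodes the cytokine TNF, and no promoter peak was listed for it in either line. Its only line was a THP-1 peak of 318 bp on an alternative haplotype of chromosome 6, where TNF was named for a peak within 20 kb downstream and the neighboring LTB for its exon. The same gap extended over the surrounding region, where listed peaks were sparse. Within 1 Mb to each side of TNF there were 1 RS4;11 and 3 THP-1 peaks, and of 101 other protein-coding genes there RS4;11 cells had 2 marked (1.98%) and THP-1 cells had 1 (0.990%). Around the other 9 genes, windows of the same size held 8 to 46 RS4;11 peaks and 17 to 46 THP-1 peaks. The authors kept only reads with a unique alignment, and the files list 27 RS4;11 and 19 THP-1 peaks on haplotype copies of this region of chromosome 6. The part of these copies in the gap was not tested, and the values say nothing about the state of TNF itself.

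**Figure D3:**
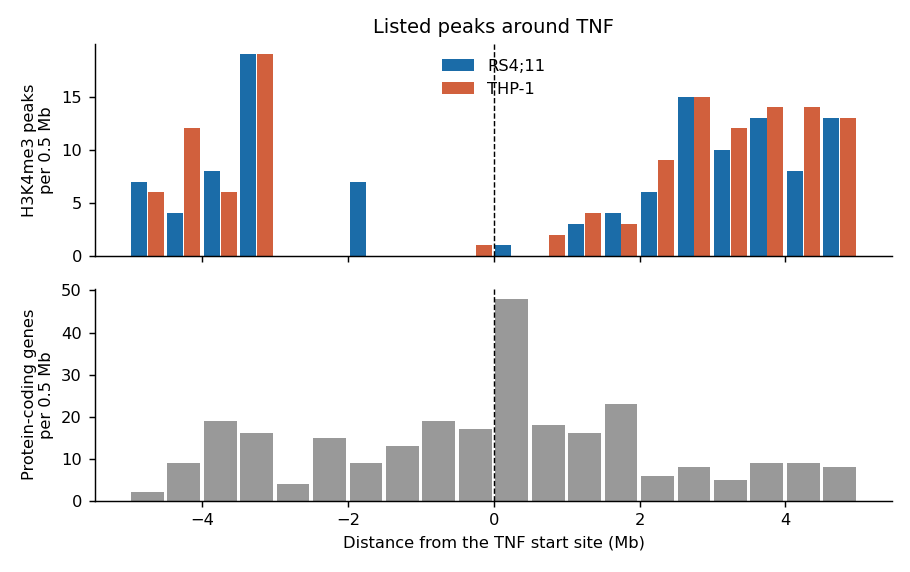
Listed H3K4me3 peaks (upper panel) and protein-coding genes (lower panel) per 0.5 Mb from 5 Mb upstream to 5 Mb downstream of the TNF start (dashed line). The 4 bins nearest to TNF hold 1 RS4;11 peak and 3 THP-1 peaks, while the bin just downstream of the start holds 48 genes.

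CCL2 encodes the chemokine that draws monocytes. Its RS4;11 peak covered 1036 bp (chr17:32581771-32582806) and its THP-1 peak 1515 bp (chr17:32581448-32582962). Both crossed the start and exon 1 and ended in intron 1, at 502 and 658 bp downstream. The THP-1 peak contained the RS4;11 peak whole.

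CCL3, which encodes the macrophage inflammatory protein MIP-1α, had the pair of peaks closest in width. The RS4;11 peak measured 2278 bp (chr17:34416189-34418466) and the THP-1 peak 2315 bp (chr17:34416069-34418383). From 977 bp upstream the RS4;11 peak reached 1300 bp into the gene, and from 894 bp upstream the THP-1 peak reached 1420 bp. Of the covered bases within 20000 bp of the gene, 96.4% of those in RS4;11 cells were shared with THP-1 cells. THP-1 cells had a separate peak of 862 bp that began 7183 bp downstream of the start.

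CCL4, which encodes MIP-1β and lies 13704 bp upstream of CCL3, was named in both files for the CCL3 peak alone. That peak ended 12754 bp (RS4;11) or 12837 bp (THP-1) upstream of CCL4, and the nearest listed peak downstream of the CCL4 start was 194740 or 45043 bp away. CCL3 and CCL4 have copies in the same cluster, and the authors kept only unique alignments. The start region of CCL4L1 was 96.3% identical to that of CCL4 over 1860 aligned positions, and that of CCL4L2 was 96.1% identical over 1777. The start region of CCL3L1 was 78.6% identical to that of CCL3 over 2014 positions and 99.7% identical to that of CCL3L3 over 2001. RS4;11 cells had a peak of 349 bp (chr17:34625960-34626308) that ended 229 bp upstream of CCL3L1, and THP-1 cells had one of 371 bp (chr17:34524394-34524764) that ended 237 bp upstream of CCL3L3. The copy to which each of these peaks belongs is uncertain, and the part of the copies in the missing CCL4 peak was not tested.

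CXCL2 encodes a chemokine for neutrophils. In RS4;11 cells its peak of 3317 bp (chr4:74962643-74965959) ran from 1047 bp upstream of the start past the end of the gene and touched all 4 exons, the coding sequence and the 3′ untranslated region included. In THP-1 cells the peak of 1814 bp (chr4:74963729-74965542) ran from 630 bp upstream to 1183 bp downstream and touched exons 1 to 3. The RS4;11 peak was 1.83 times as wide and contained the THP-1 peak. RS4;11 cells had a further peak of 1598 bp that began 4333 bp downstream of the start, and THP-1 cells had no other peak within 20000 bp. The related gene CXCL3, its neighbor downstream, was marked in THP-1 cells alone.

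NLRP3 was marked in RS4;11 cells and not in THP-1 cells. The RS4;11 peak of 3294 bp (chr1:247578235-247581528) ran from 1240 bp upstream to 2053 bp downstream of the start and touched exons 1 and 2, without reaching coding sequence. RS4;11 cells had a second peak of 2443 bp within the gene, in an intron, and another of 1372 bp upstream. In THP-1 cells there were 3 peaks upstream, of 2203, 1814 and 2217 bp, and the nearest ended 2731 bp before the start (chr1:247574528-247576744). From there no THP-1 peak was listed until 113575 bp downstream of the start. The upstream peak nearest the start was present in both lines, and the RS4;11 one, of 1372 bp, lay inside that of THP-1 cells. Since the files hold no peak wider than 4446 bp in THP-1 cells, a wider peak at this start cannot be told apart from no peak.

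**Figure D4:**
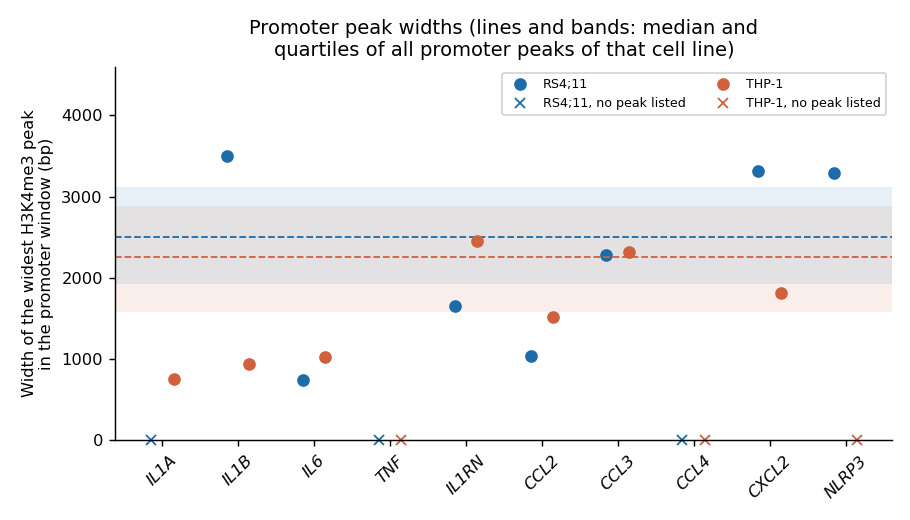
Width in bp of the widest H3K4me3 peak in the MANE promoter window of each gene in RS4;11 cells and THP-1 cells (points). A cross at 0 marks a gene with no listed peak. The dashed line and band give the median and quartiles of all peaks of the line in the windows at gene 5′ ends. IL1B, CXCL2 and NLRP3 lie above 3000 bp in RS4;11 cells, and no gene does in THP-1 cells.

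Over all genes, promoter peaks had a median width of 2506 bp (RS4;11, quartiles 1924 and 3119 bp) or 2255 bp (THP-1, quartiles 1579 and 2886 bp). Of the 6 genes with a peak in both lines, IL1B and CXCL2 had the wider peak in RS4;11 cells, and IL6, IL1RN, CCL2 and CCL3 had it in THP-1 cells. CCL3 differed by 37 bp, while IL1B differed by 2558 bp in the other direction. Across the 9355 protein-coding genes with a peak in both lines, 53.5% had the wider one in RS4;11 cells. The widest THP-1 peak of the set was that of IL1RN, with 58.4% of THP-1 promoter peaks no wider, and the narrowest were those of IL1A and IL1B.

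WDR5 was not listed at any of the 10 genes. No line of either WDR5 file named one of them, against 4.39% of all protein-coding genes with a WDR5 peak within 20000 bp in the RS4;11 file and 1.48% in the THP-1 file. The nearest listed WDR5 peak was 55203 bp from IL1A in RS4;11 cells, and at the other genes the nearest listed one lay at least 111029 bp away. In THP-1 cells no listed WDR5 peak was nearer than 280367 bp. Peaks more than 20 kb from a transcript are not listed, so an unlisted peak may lie nearer. For H3K4me3, by contrast, 9 of the 10 genes were named on a line of the RS4;11 file and all 10 on a line of the THP-1 file, where 78.5% and 83.4% of all genes had a peak within 20000 bp.

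The wider pathway was read from 67 further genes in 5 lists. In total 42 were marked at the gene 5′ end in THP-1 cells and 33 in RS4;11 cells, 10 in THP-1 cells alone and 1 in RS4;11 cells alone. The totals were shares of 62.7% (THP-1) and 49.3% (RS4;11), beside 55.3% and 49.2% of all genes. Of all genes 11.9% were marked in THP-1 cells alone and 5.72% in RS4;11 cells alone. The same shares of all genes are the background for the counts of each list below.

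Of 12 receptor genes for these ligands, 8 were marked in THP-1 cells and 6 in RS4;11 cells. The signaling chains IL1RAP, IL6ST, TNFRSF1A and TNFRSF1B were marked in both lines, as were the chemokine receptors CCR1 and CXCR2. CCR2, the receptor for CCL2, had a THP-1 peak of 3784 bp and no RS4;11 peak, and IL1R2, the decoy receptor for IL-1, had a THP-1 peak of 449 bp alone. Where both lines were marked, CCR1 had a peak of 1079 bp in the RS4;11 file and of 3571 bp in the THP-1 file.

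Of 11 inflammasome partners and substrates, 8 were marked in THP-1 cells and 5 in RS4;11 cells. PYCARD, the adaptor of NLRP3, and CASP1, CASP4, NEK7 and GSDMD, which encodes the pore-forming gasdermin D, were marked in both lines. MEFV, IL18 and NLRC4 were marked in THP-1 cells alone, with peaks of 2484, 1840 and 1181 bp. MEFV encodes the sensor pyrin, IL18 a substrate of caspase-1 and NLRC4 another sensor. The 5 genes of this list marked in RS4;11 cells were all marked in THP-1 cells too, where 5.72% of all genes were marked in RS4;11 cells alone. NLRP3 itself had a promoter peak listed in RS4;11 cells alone.

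The 14 genes for NF-κB factors and their inhibitors showed no gene marked in 1 line only. In both lines 9 of them were marked, among them RELA, RELB and NFKB2, which encode NF-κB subunits, and NFKBIZ, which encodes an inducible co-regulator. NFKB1, REL, NFKBIA and TNFAIP3 had no listed peak in either line by either start.

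Of 23 other inducible cytokines and chemokines, 14 were marked in THP-1 cells and 9 in RS4;11 cells. CXCL8, CCL5, IL12A, IL12B, LIF and OSM were among those marked in both. The widest of the 5 marked in THP-1 cells alone were CXCL1, CXCL3, CXCL10 and EBI3, with peaks of 1967, 1717, 1237 and 853 bp. CXCL1 and CXCL3 lie in the same cluster as CXCL2, where RS4;11 cells had 8 peaks within 1 Mb of CXCL2 and THP-1 cells had 22. LTA and LTB flank TNF in the region of sparse peaks, and neither had a promoter peak listed on the main chromosome 6 in either line. Haplotype copies were not counted, so this says nothing about their state.

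Of 7 immediate early and inducible factor genes, 3 were marked in THP-1 cells and 4 in RS4;11 cells. FOS, which encodes a subunit of AP-1, had a peak of 3353 bp in RS4;11 cells and none listed in THP-1 cells. FOSB, EGR1 and CEBPB were marked in both, and JUN and JUNB in neither.

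**Figure D5:**
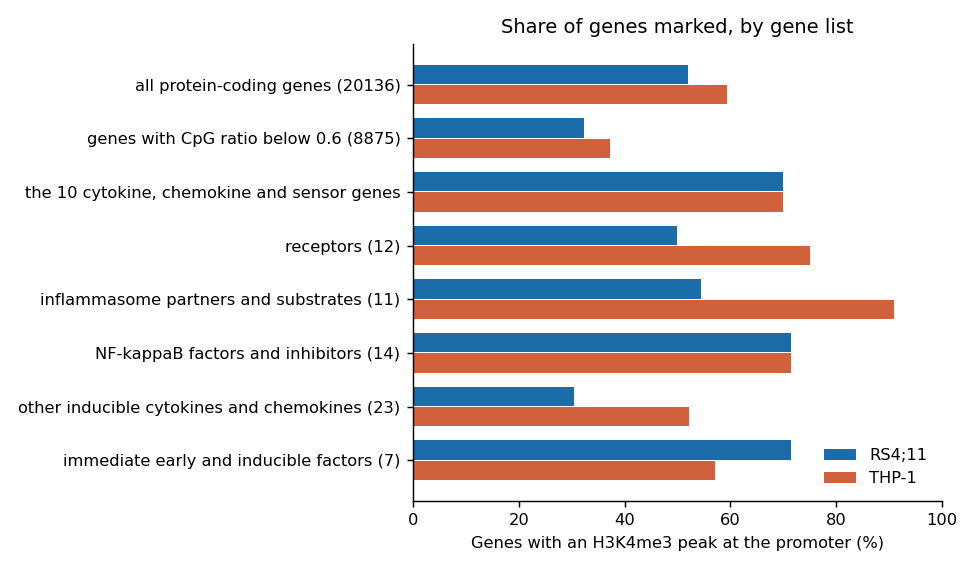
Percent of genes with an H3K4me3 peak in the window around the MANE start in RS4;11 and THP-1 cells, for all protein-coding genes, those with a CpG ratio below 0.6, the 10 inflammatory genes and the 5 pathway lists (number of genes in brackets). The 10 genes stand at 70% in both lines, beside 59.4% (THP-1) and 52.0% (RS4;11) of all genes. The genes with a CpG ratio below 0.6 stand at 37.2% and 32.4%, and of the 9 inflammatory genes among them 6 were marked in each line.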

How the data were processed

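The 4 samples were ChIP-seq of 2 targets, H3K4me3 and WDR5, in 2 cell lines with no replicates, grouped by cell line and antibody. The cell type entry of 2 samples (THP-1 WDR5 and RS4;11 H3K4me3) names the other leukemia type. The authors sheared chromatin by sonication for WDR5 and used micrococcal nuclease for H3K4me3, aligned reads to hg19 with Eland (at most 2 mismatches, unique alignments), called peaks with MACS and joined them to transcripts within 20 kb. The submitters' notes name CASAVA 1.7 and 1.8.2. The MACS version and control are not given in the sources used here. The deposited files list peak intervals and yes or no position flags, with no counts or scores, so depth is unknown and no interval was computed. Peaks more than 20 kb from a transcript are not listed.

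Lines were reduced to distinct peaks and set against GENCODE release 44 on GRCh37, which shares its coordinates with hg19, in Python 3.11.15. Simulated peaks planted inside or beyond the window at gene 5′ ends were assigned correctly. They were placed with the same window rule, so this checks the code only. The members and lists were chosen with earlier results of these data known. All 10 members were named. Other genes were named by peak width among those marked in 1 line. Alternatives were other windows and starts. A marker gene and a reference gene were left out of their lists, and a promoter sequence is not reported here.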

Additional observations from a re-analysis of the deposited data

How the results depend on the processing

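The counts of marked genes rested on 1 sample per antibody and line. The count of genes marked in THP-1 cells stayed between 6 and 7 under all alternatives, and IL1A was marked in THP-1 cells alone under every alternative. With 5000 bp to each side of the start, NLRP3 was marked in both lines. The count marked in THP-1 and not in RS4;11 cells was 2, and it was 1 with 1000 bp to each side of the start, with 5000 bp to each side, with the starts of all transcripts, with the MANE start and with the MANE start base, the last 2 added after seeing the data. It was 4 when the center of the peak had to lie in the window, where the RS4;11 count fell from 5 to 3. Under the same rule RS4;11 cells had 20 pathway genes marked in place of 33, and THP-1 cells 23 in place of 42. The median promoter peak width over the genes marked at the 5′ end was 3294 bp (RS4;11, 5 genes) and 1272 bp (THP-1, 6 genes). Over the same genes it was 4724 and 1946 bp when all peaks in the gene and 5000 bp around it were summed. The genes behind the 2 medians differ. Over the 6 genes with a MANE window peak in both lines, the medians were 1966.5 bp (RS4;11) and 1664.5 bp (THP-1), and 2 genes had the wider peak in RS4;11 cells. The other 43 of the 54 alternative values stayed within 1.5 times. No WDR5 line named any of the genes under either flag rule. No paired analysis was possible because each group has 1 sample and no result comes from a test.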

Other observations

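The neighbors of the 10 genes were described by the same window at the MANE start. Of the nearest protein-coding genes on either side, TOMM7 beside IL6, PSD4 beside IL1RN, CKAP2L beside IL1A, MTHFD2L beside CXCL2 and ZNF496 beside NLRP3 were marked in both lines. RAPGEF5 upstream of IL6 and ASIC2 upstream of CCL2 were marked in RS4;11 cells alone. IL37, IL1F10, CCL7, CCL18, LTA, LTB, TBC1D3B and OR2B11 were marked in neither line. IL1B and IL1A thus lay in a cluster where the next gene upstream, IL37, 74348 bp away, had no listed peak.

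Over the 4 files together, IL1B, IL1RN, IL6, CCL2, CCL3 and CXCL2 shared their pattern (H3K4me3 in both lines, WDR5 in neither) with 9315 protein-coding genes (46.3%). TNF and CCL4, with no peak in the MANE window in any file, shared theirs with 7042 genes (35.0%). The pattern of IL1A was found at 2606 genes (12.9%) and that of NLRP3 at 1108 (5.50%).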
